A study of Mus musculus with 8 samples.

Results

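The AP-1 transcription factors described here are 8 genes: Fos, Fosb, Fosl1, Fosl2, Jun, Junb, Jund and Atf3. They were taken by name from 19937 mouse genes measured with a probe set of a single gene symbol, and each of the 8 has 1 such probe set. The cells were NMuMG, an untransformed mouse mammary gland epithelial line, of which the study's methods name the subclone NMuMG/E9. Cells received either a non-targeting control siRNA (siControl) or a pool of 2 siRNAs against Klf4 (siKlf4), a zinc-finger transcription factor of the Krüppel-like family. Each was grown without TGFβ or with TGFβ at 2 ng/ml for 2 days, which gives 4 groups of 2 arrays: siControl, siKlf4, siControl with TGFβ and siKlf4 with TGFβ. All cells were therefore transfected with an siRNA, and no untransfected group and no second cell line belong to the 8 arrays. For the wound closure assay the methods name a control siRNA from Invitrogen and Klf4 siRNAs from Sigma. With a single pool, its other effects cannot be told apart from those of lowering Klf4. The design asks what lowering Klf4 does to expression with and without TGFβ, and the study's interest in AP-1 lies in Jnk1 (Mapk8), a kinase that activates Jun.

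AP-1 is a dimer of basic leucine zipper (bZIP) proteins that binds a short palindrome in promoters and enhancers. The Jun proteins pair with each other and with the Fos proteins, whereas the Fos proteins need a Jun or another bZIP partner, and Atf3 pairs with the Jun proteins and binds related sites. Several of these genes are immediate early genes: growth factors, stress and serum raise their transcripts within minutes through the MAP kinases and the factors SRF and Elk, and the transcripts are short-lived. In epithelial cells TGFβ signals through Smad proteins, which can bind together with AP-1, and long exposure drives the epithelial to mesenchymal transition. The arrays measure transcripts after 2 days of TGFβ, so that they show neither the first hours of the response nor AP-1 protein or activity.

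Values are log2 array values as deposited, and a difference of 1 on this scale is a 2-fold difference. They do not rank the members against each other, since each probe set binds with its own strength. Each gene was tested with limma across the 8 arrays, and a gene is called where its Benjamini-Hochberg adjusted p over all 19937 genes is under 0.05. Array medians lay between 4.902 and 5.002, the 2 arrays of a group correlated at 0.997 to 0.998 across genes and arrays of different groups at 0.973 to 0.993. The labels do not tie replicate arrays to separate cultures; the p-values therefore reflect array-to-array spread that may be technical, and 2 arrays a group limit the precision. The epithelial transcripts Cdh1 (10.15 to 10.89), Krt8 (13.04 to 13.42) and Krt18 (12.18 to 12.85) lay far above these medians on every array, Epcam (3.88 to 4.09) lay below them, and Cldn4 was at 5.19 to 5.84 in the siControl groups and 8.53 to 9.04 in the siKlf4 groups. Cldn3, another epithelial transcript, lay only moderately above the medians (5.83 to 6.37). Values of the leukocyte marker Ptprc (3.61 to 3.83), the endothelial marker Pecam1 (4.05 to 4.29) and the adipocyte marker Adipoq (3.08 to 3.35) lay below the medians. The leukocyte marker Cd3e (4.84 to 5.20) and the adipocyte marker Plin1 (4.99 to 5.30) did not, and lay around or slightly above them. The summed level of the 4 leukocyte markers ranged on the log2 scale over 7.57 to 7.59 in siControl, 7.86 to 7.92 in siKlf4, 6.74 to 6.97 in siControl plus TGFβ and 7.13 to 7.17 in siKlf4 plus TGFβ, following Cd68 (5.59 to 7.58). The sums of the 3 endothelial (5.64 to 5.95) and 3 adipocyte markers (5.64 to 5.87) moved less, and the part of other cells in the results was not tested.

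The targeted gene was called lower in siKlf4 without TGFβ and not with it. Klf4 read 8.60 and 8.43 in siControl and 8.03 and 7.91 in siKlf4, a difference of -0.54 (SE 0.0987, limma adjusted p = 0.00369). With TGFβ it read 7.46 on both siControl arrays and 7.43 and 7.24 on the siKlf4 arrays, a difference of -0.13 that was not called (adjusted p = 0.444), although both siKlf4 arrays lay below both siControl arrays. TGFβ lowered Klf4 in siControl by 1.05 on the log2 scale (adjusted p = 0.000357). The direction of every siKlf4 comparison with TGFβ below thus rests on the arrays labelled siKlf4 with TGFβ, whose Klf4 level did not pass the test against the arrays labelled siControl with TGFβ. The arrays of the 2 labels with TGFβ did not overlap for Cldn4 (9.02 to 9.04 against 5.19 to 5.56), as without TGFβ. The same held for 62.4% of all genes with TGFβ, so this is no measure of the Klf4 level.

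Sequences just upstream of 5 members are shown because these genes carry the results that follow: Fosl2 and Junb were higher in siKlf4 with and without TGFβ, and Jun, Fosb and Atf3 changed their response to siKlf4 with TGFβ. Each stretch holds the 250 bases before the annotated gene start, 5′ to 3′ on the gene's strand, from RefSeq on GRCm38.p6. Capitals mark the letters CACCC, a core that Krüppel-like factors bind, or GGGTG, the same core on the other strand, and any match with at most 1 changed base to TGACGTCA, the CRE that Jun and ATF proteins bind.
Fosl2, chr5:32136222-32136471, plus strand: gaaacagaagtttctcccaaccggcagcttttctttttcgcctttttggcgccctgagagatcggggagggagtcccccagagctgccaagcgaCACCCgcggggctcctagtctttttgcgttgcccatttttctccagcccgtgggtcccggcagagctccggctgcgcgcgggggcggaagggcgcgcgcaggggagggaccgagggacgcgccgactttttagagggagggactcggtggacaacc
Junb, chr8:84978749-84978998, minus strand: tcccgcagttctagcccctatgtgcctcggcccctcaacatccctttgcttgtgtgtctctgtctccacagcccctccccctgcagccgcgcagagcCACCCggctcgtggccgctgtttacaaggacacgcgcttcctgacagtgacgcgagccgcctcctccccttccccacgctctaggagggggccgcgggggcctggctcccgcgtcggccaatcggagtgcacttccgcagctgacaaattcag
Jun, chr4:95052223-95052472, minus strand: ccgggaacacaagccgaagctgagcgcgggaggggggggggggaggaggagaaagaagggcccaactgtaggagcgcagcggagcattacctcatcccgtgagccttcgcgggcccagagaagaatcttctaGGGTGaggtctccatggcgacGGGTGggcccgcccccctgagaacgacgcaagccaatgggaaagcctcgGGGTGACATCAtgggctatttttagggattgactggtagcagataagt
Fosb, chr7:19310046-19310295, minus strand: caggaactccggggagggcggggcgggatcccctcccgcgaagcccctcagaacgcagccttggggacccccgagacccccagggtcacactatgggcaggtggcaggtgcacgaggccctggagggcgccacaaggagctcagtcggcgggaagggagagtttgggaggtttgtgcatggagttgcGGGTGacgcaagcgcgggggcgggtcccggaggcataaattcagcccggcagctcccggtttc
Atf3, chr1:191183334-191183583, minus strand: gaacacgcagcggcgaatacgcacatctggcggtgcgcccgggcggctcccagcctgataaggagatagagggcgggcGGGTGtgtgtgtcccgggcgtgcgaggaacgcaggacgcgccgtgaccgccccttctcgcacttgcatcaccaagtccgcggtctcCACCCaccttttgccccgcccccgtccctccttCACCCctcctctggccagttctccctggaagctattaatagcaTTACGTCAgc
The promoter table held 7 of the 8 members, without Fosl1. In windows of 300 bases, 250 before and 50 after the start, 6 of the 7 held CACCC on either strand, and 57.5% of all 32851 promoters did. Jun and Atf3 held 3 such matches each, Junb and Jund 2 each, and Fosl2 and Fosb 1 each, while Fos held none. The exact AP-1 site TGAGTCA was found in 5.20% of all promoters, the exact CRE in 1.79% and the CArG box that SRF binds in 1.63%. None was in any of these 7 windows, and sequence further upstream was not searched. With 1 base allowed to differ, a search added after the sequences had been seen, Jun held TGACATCA starting 45 bases before its gene start, where it overlaps GGGTG, Atf3 held TTACGTCA at 10 bases and Fos held TGACGACA at 129 bases, against 12.5% of all promoters. These matches describe the letters and are no measure of binding.

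The 8 members did not move as a block. Without TGFβ, siKlf4 cells had higher Fosl2 and Junb and lower Fos, Fosb, Fosl1, Jun and Atf3, with Jund not called. The 2 members called higher stand against 9.98% of all genes called higher, and the 5 called lower against 9.71% called lower. With TGFβ, 6 members were higher in siKlf4 (Fosb, Fosl2, Jun, Junb, Jund and Atf3), where 12.3% of all genes were called higher, and Fos alone was lower, where 11.9% were. The median member difference was -0.35 without and 0.40 with TGFβ, and the median of all genes was 0.00417 and -0.0299. The arrays of the 2 siRNAs did not overlap for any of the 8 members in either condition, but the same held for 49.1% of all genes without TGFβ and 62.4% with it, so this does not set the members apart. Because whole cultures were measured, fewer cells expressing a gene and less RNA per cell cannot be told apart.

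**Figure D1:**
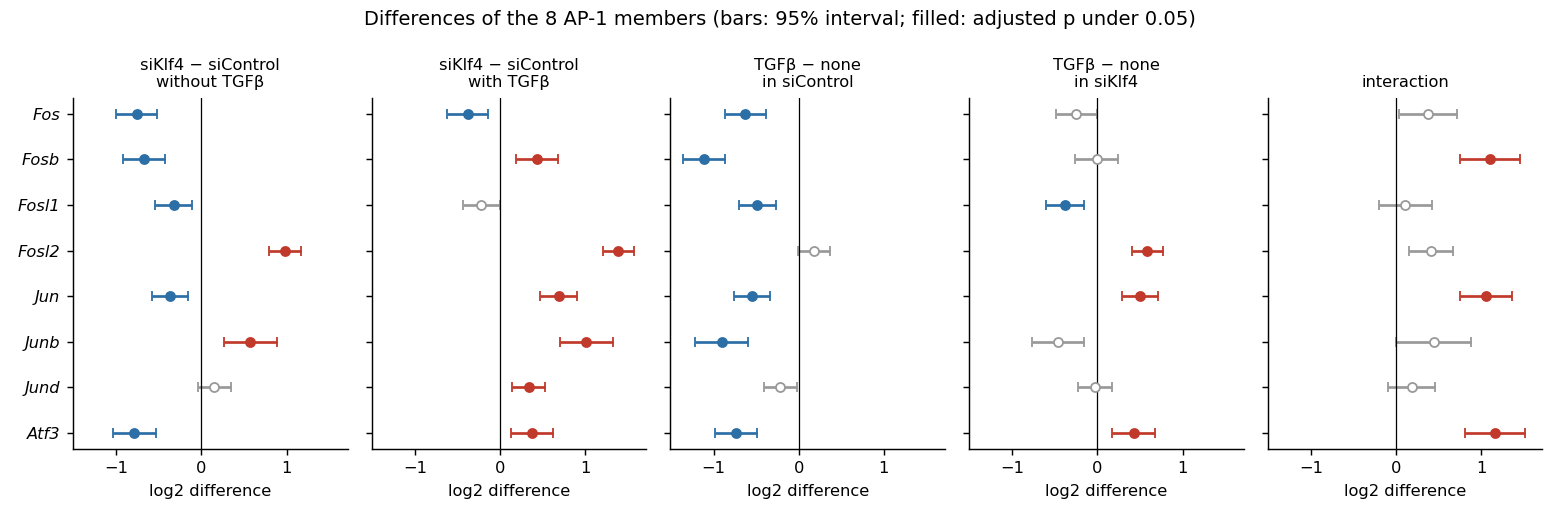
Log2 differences of the 8 members in 5 comparisons (columns), with 95% confidence intervals that are not adjusted for multiple genes; filled points have an adjusted p under 0.05, red above 0 and blue below. Jun, Fosb and Atf3 lie below 0 in the first column and above 0 in the second, while Fosl2 and Junb lie above 0 in both.

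TGFβ itself also divided the members by siRNA. In siControl cells TGFβ lowered 6 members, all but Fosl2 and Jund, where 6.65% of all genes were called lower and 5.81% higher. The median member difference was -0.59, against 0.0201 over all genes. In siKlf4 cells TGFβ raised Fosl2, Jun and Atf3, where 6.01% of all genes were called higher, and lowered Fosl1, where 6.87% were called lower; the median was -0.02, against -0.0167 over all genes. The interaction, that is the siKlf4 difference with TGFβ minus the one without, was above 0 for 8 of 8 members with a median of 0.42, against -0.0251 over all genes. It was called higher for Fosb, Jun and Atf3, while 0.547% of all genes were called higher and 0.978% lower. The 2 siKlf4 comparisons share no arrays, but each TGFβ comparison shares 2 arrays with each of them, and all 4 groups enter the interaction, so these comparisons are not independent of one another.

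Fosl2 encodes Fra-2, a Fos-family protein without the strong activation domain of c-Fos. Its log2 values were 7.98 and 7.89 in siControl, 8.89 and 8.94 in siKlf4, 8.08 and 8.15 in siControl plus TGFβ, and 9.45 and 9.55 in siKlf4 plus TGFβ. Both siKlf4 groups lay above both siControl groups, and the 2 arrays with TGFβ were highest. The siKlf4 difference was 0.98 without TGFβ (1.97-fold, 95% interval 0.80 to 1.17, adjusted p = 3.64e-05) and 1.39 with it (2.62-fold, 1.21 to 1.57, adjusted p = 3.07e-06). These are the largest of the 8 members in both conditions. TGFβ raised Fosl2 by 0.59 in siKlf4 cells (adjusted p = 0.00154), while the difference in siControl was 0.18 with an interval of -0.0045 to 0.36 (adjusted p = 0.217). The interaction of 0.41 was not called (SE 0.114, adjusted p = 0.151). Across the 2 labels, siKlf4 with TGFβ exceeded untreated siControl by 1.57 (2.96-fold, adjusted p = 9.79e-07).

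Junb encodes a Jun-family protein that in many settings opposes c-Jun. Its values were 8.51 and 8.10 in siControl, 8.88 and 8.87 in siKlf4, 7.52 and 7.28 in siControl plus TGFβ, and 8.37 and 8.46 in siKlf4 plus TGFβ. The siControl arrays with TGFβ stood below all the others, and the 2 untreated siControl arrays were 0.413 apart, the widest gap of any member. Junb was higher in siKlf4 by 0.57 without TGFβ (1.49-fold, adjusted p = 0.0162) and by 1.01 with it (2.02-fold, adjusted p = 0.000515). The first of these calls was lost without the second siControl array, where the difference was 0.37 (adjusted p = 0.0822), or without either siKlf4 array (0.0668 and 0.0666). TGFβ lowered Junb in siControl by 0.91 on the log2 scale (SE 0.137, adjusted p = 0.00309), whereas the difference of -0.46 in siKlf4 was not called (adjusted p = 0.0589), but passed under several alternatives (0.00933 to 0.0468). The interaction of 0.44 was not called either (0.00187 to 0.88 before adjustment, adjusted p = 0.412), so a different TGFβ response of Junb was not shown. Between siKlf4 with TGFβ and untreated siControl the difference was 0.11 and not called (adjusted p = 0.668).

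**Figure D2:**
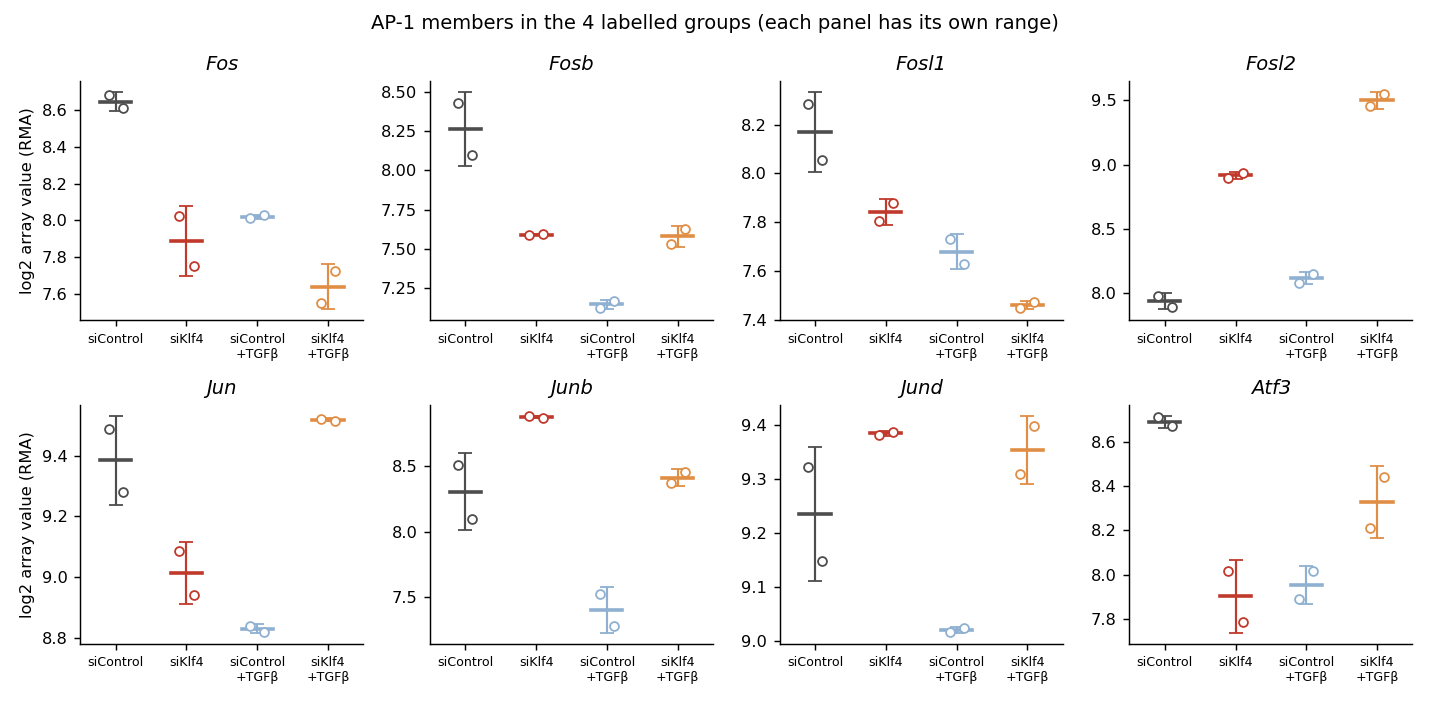
Log2 array values of the 8 members (vertical axis, a separate range in each panel) in the 4 groups, with each array as a point and the group mean ± SD (n = 2) as a bar. Fosl2 is highest in siKlf4 with TGFβ, at 9.45 and 9.55, and Fosb, Jun, Junb and Jund are lowest in siControl with TGFβ.

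Jun encodes c-Jun, a target of the JNK kinases and the partner of every Fos protein. It read 9.49 and 9.28 in siControl, 9.09 and 8.94 in siKlf4, 8.84 and 8.82 in siControl plus TGFβ, and 9.52 and 9.51 in siKlf4 plus TGFβ. The siKlf4 arrays thus lay below siControl arrays without TGFβ and above them with TGFβ. The differences were -0.37 (SE 0.0943, adjusted p = 0.0223) and 0.69 (1.61-fold, adjusted p = 0.000569), and the interaction was 1.06 (SE 0.133, 95% interval 0.75 to 1.36, adjusted p = 0.0111). TGFβ lowered Jun by 0.55 on the log2 scale in siControl (adjusted p = 0.00552) and raised it by 0.50 in siKlf4 (adjusted p = 0.00771). Between siKlf4 with TGFβ and untreated siControl the difference was 0.13 and not called (adjusted p = 0.382). Leaving out 1 array ended 3 of these calls: the untreated siKlf4 difference without siControl 1 or siKlf4 2 (adjusted p = 0.123 each), the interaction without any 1 of the 4 TGFβ arrays (0.0595 to 0.0683), and the rise with TGFβ without siKlf4 2 (0.052), siKlf4 with TGFβ 1 (0.0594) or 2 (0.0572). The difference of 0.69 with TGFβ and the fall in siControl stayed called without any 1 array.

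Fosb is a Fos-family gene whose transcript also gives a shorter splice form. Like those of Jun, its siKlf4 differences changed sign with TGFβ, but unlike Jun it was not called higher with TGFβ in siKlf4 cells. In siKlf4 with TGFβ it stayed below untreated siControl, by -0.68 (limma adjusted p = 0.00112). It read 8.43 and 8.10 in siControl, 7.59 and 7.60 in siKlf4, 7.13 and 7.17 in siControl plus TGFβ, and 7.53 and 7.63 in siKlf4 plus TGFβ. In siKlf4 cells the arrays with and without TGFβ overlapped (difference -0.01, 95% interval -0.26 to 0.24, adjusted p = 0.976), whereas in siControl it lowered Fosb by 1.11 on the log2 scale (2.16-fold, adjusted p = 0.000422), the largest TGFβ difference of the 8 members. The siKlf4 difference was -0.67 without TGFβ (adjusted p = 0.00208) and 0.43 with it (1.35-fold, adjusted p = 0.018), with an interaction of 1.10 (SE 0.155, adjusted p = 0.0145). The call with TGFβ was lost without siControl with TGFβ 1 (0.102) or 2 (0.0714) or siKlf4 with TGFβ 1 (0.0563) or 2 (0.123). The interaction was lost without any 1 of the same 4 arrays (0.0646 to 0.0808).

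Atf3, a stress-induced gene whose protein can repress or activate with its Jun partner, read 8.71 and 8.67 in siControl. It fell to 8.02 and 7.79 in siKlf4 and to 7.89 and 8.02 in siControl plus TGFβ, and stood at 8.21 and 8.44 in siKlf4 plus TGFβ. The untreated siControl arrays were the highest, and those of siKlf4 and of siControl with TGFβ covered the same range (difference of means 0.05, adjusted p = 0.827). The siKlf4 difference was -0.79 without TGFβ (1.73-fold lower, adjusted p = 0.000831) and 0.37 with it (1.29-fold higher, adjusted p = 0.0366), and the interaction of 1.16 (SE 0.156, adjusted p = 0.0128) was the largest among the members. TGFβ lowered Atf3 by 0.74 on the log2 scale in siControl (adjusted p = 0.00295) and raised it by 0.43 in siKlf4 (adjusted p = 0.0355). The siKlf4 call with TGFβ was lost without siControl with TGFβ 1 (0.211) or 2 (0.0763) or siKlf4 with TGFβ 2 (0.262). The rise with TGFβ was lost without siKlf4 2 (0.191), siControl with TGFβ 1 or 2 (0.0562 each) or siKlf4 with TGFβ 2 (0.254), and the interaction without siControl with TGFβ 1 (0.0666) or 2 (0.0577) or siKlf4 with TGFβ 2 (0.0693). Unlike Jun, Atf3 in siKlf4 with TGFβ stayed below untreated siControl, by -0.36 (adjusted p = 0.0339), as Fosb did. Whether these genes differ from Jun in this was not tested.

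Fos encodes c-Fos, the prototype immediate early protein of the family. Its values were 8.69 and 8.61 in siControl, 8.02 and 7.75 in siKlf4, 8.01 and 8.03 in siControl plus TGFβ, and 7.55 and 7.72 in siKlf4 plus TGFβ. The untreated siControl arrays stood above all the others. Fos was lower in siKlf4 by -0.76 without TGFβ (1.69-fold, adjusted p = 0.00085) and by -0.38 with it (1.30-fold, adjusted p = 0.0287), and the interaction of 0.38 was not called (adjusted p = 0.353). It was the only member called lower in siKlf4 in both conditions, but its call with TGFβ was lost with array medians centred (limma adjusted p = 0.0653). The call with TGFβ was lost without siControl with TGFβ 1 (0.114) or 2 (0.126) or siKlf4 with TGFβ 1 (0.198). TGFβ lowered Fos by 0.63 on the log2 scale in siControl (adjusted p = 0.0055), and in siKlf4 the difference was -0.25 (-0.49 to -0.0077 before adjustment, adjusted p = 0.194). From untreated siControl to siKlf4 with TGFβ the difference was -1.01 (adjusted p = 7.71e-05).

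Fosl1 encodes Fra-1, a Fos-family protein often abundant in mesenchymal and migrating cells. It read 8.29 and 8.05 in siControl, 7.80 and 7.88 in siKlf4, 7.73 and 7.63 in siControl plus TGFβ, and 7.45 and 7.47 in siKlf4 plus TGFβ. Its 4 pairwise differences were all below 0. The siKlf4 difference was -0.33 without TGFβ (adjusted p = 0.0419) and -0.22 with it (not called, adjusted p = 0.149), and TGFβ gave -0.49 in siControl (adjusted p = 0.0107) and -0.38 in siKlf4 (adjusted p = 0.0309). The first call was lost on leaving out any 1 array but siControl 2 (0.0648 to 0.209), and the difference was -0.21 without siControl 1. The call for TGFβ in siControl was lost without siControl 1 (0.0593) or siControl with TGFβ 2 (0.0923), and that in siKlf4 without any 1 array of the groups other than untreated siControl (0.0528 to 0.16). With array medians centred, the siKlf4 call without TGFβ (limma adjusted p = 0.053) and the TGFβ call in siKlf4 (0.0625) were lost. The former was also lost with only the arrays compared (0.125) and with array weights (0.08). Fosl1 and Fosl2, the 2 Fra genes, thus went in opposite directions in untreated siKlf4 cells, with the Fosl1 call less secure.

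Jund, the Jun gene with the steadiest expression across growth states, varied least of the 8. It read 9.32 and 9.15 in siControl, 9.38 and 9.39 in siKlf4, 9.02 on both arrays of siControl with TGFβ, and 9.31 and 9.40 in siKlf4 plus TGFβ. The only call was a higher level in siKlf4 with TGFβ than in siControl with TGFβ (0.33, SE 0.0865, 1.26-fold, adjusted p = 0.0198). It was lost without siControl with TGFβ 1 (0.103) or 2 (0.0936) or siKlf4 with TGFβ 1 (0.0569) or 2 (0.143). Without TGFβ the difference was 0.15 (-0.046 to 0.35, adjusted p = 0.314), and the TGFβ difference was -0.22 in siControl (adjusted p = 0.162) and -0.03 in siKlf4 (-0.23 to 0.17, adjusted p = 0.902).

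The order of the 4 group means differed between members. Untreated siControl was highest for Fos, Fosb, Fosl1 and Atf3, siKlf4 with TGFβ was highest for Fosl2 and Jun, and untreated siKlf4 was highest for Junb and Jund. Several neighbours in these orders were not called different: for Fos, siControl with TGFβ and siKlf4 (adjusted p = 0.49), for Fosb, siKlf4 without and with TGFβ (0.976), for Jun, the highest group and untreated siControl (0.382), and for Junb, siKlf4 with and without TGFβ (0.0589), although the Junb arrays of these 2 groups did not overlap. For Fosl2 the order ran from siKlf4 with TGFβ over siKlf4 to the siControl groups, of which only the last 2 were not called different (0.217). Neighbours of Jund were not called different at any place (0.162 to 0.902). Fosl1 had only its first 2 groups, siControl and siKlf4, called different (0.0419). Also not called were Atf3 (0.827) and Jun (0.236) between siKlf4 and siControl with TGFβ, Fos between siKlf4 without and with TGFβ (0.194), and Junb between siKlf4 with TGFβ and siControl (0.668).

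Among the other bZIP genes, Maff rose in both siKlf4 comparisons. Of 13 other bZIP partners of AP-1 proteins 12 were analysed here, and their median siKlf4 difference was 0.10 without and 0.07 with TGFβ. Maff, a small Maf protein without an activation domain, was higher by 0.68 (adjusted p = 0.000552) and 0.58 (adjusted p = 0.00107), and was the 1 of 12 called without TGFβ, where 9.98% of all genes were called higher. With TGFβ, where 12.3% of all genes were, 3 of 12 rose: Maff, Atf7 (0.32, adjusted p = 0.0148) and Jdp2, a repressor that dimerizes with Jun (0.27, adjusted p = 0.0301). The calls of Atf7 and Jdp2 were each lost without any 1 of the 4 TGFβ arrays (0.0735 to 0.184).

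Upstream of AP-1, most calls fell on SRF and the factors that act with it. Of 20 listed MAP kinases, their activating kinases and SRF factors 17 were analysed here. In siKlf4, 6 of 17 rose without TGFβ and 5 with it, against the same 9.98% and 12.3% of all genes, with medians of 0.13 and 0.22, and SRF or its partners made up 4 of the 6 and all 5. Elk3, an Ets-family partner of SRF, rose by 1.43 and 1.46 (adjusted p = 4.98e-06 and 2.52e-06), and Mrtfa, the actin-regulated coactivator of SRF, by 0.71 and 0.90 (adjusted p = 0.00105 and 0.000187). Srf (0.65 and 0.62) and Elk1 (0.59 and 0.34), named here after their values were seen, were also called in both conditions. Elk1 with TGFβ lost its call without siControl with TGFβ 1 (0.137) or 2 (0.0632) or siKlf4 with TGFβ 2 (0.158). The remaining calls were Mapk9, which encodes Jnk2, and Mapk11 without TGFβ (0.32 and 0.63), and Mrtfb with TGFβ (0.25). Mapk9 lost its call without 6 of the 8 arrays, all but siControl 1 and siKlf4 2 (0.0526 to 0.163), and Mrtfb without any 1 of the TGFβ arrays (0.0941 to 0.248).

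Mapk8, the gene of Jnk1, read 6.73 and 6.52 in siControl, 6.78 and 6.62 in siKlf4, 7.60 and 7.59 in siControl plus TGFβ, and 7.91 and 7.83 in siKlf4 plus TGFβ. The siKlf4 arrays overlapped those of siControl without TGFβ (0.07, adjusted p = 0.718) and lay above them with TGFβ, a difference of 0.27 that was not called (adjusted p = 0.0761). This difference passed the threshold with the replicate block (0.0437), with only the arrays compared (0.0276) and with array weights (0.0235). TGFβ raised Mapk8 by 0.97 in siControl (adjusted p = 0.000464) and by 1.17 in siKlf4 (adjusted p = 0.000127). Its rise with TGFβ stood beside a fall of Jun in siControl and a rise of Jun in siKlf4.

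**Figure D3:**
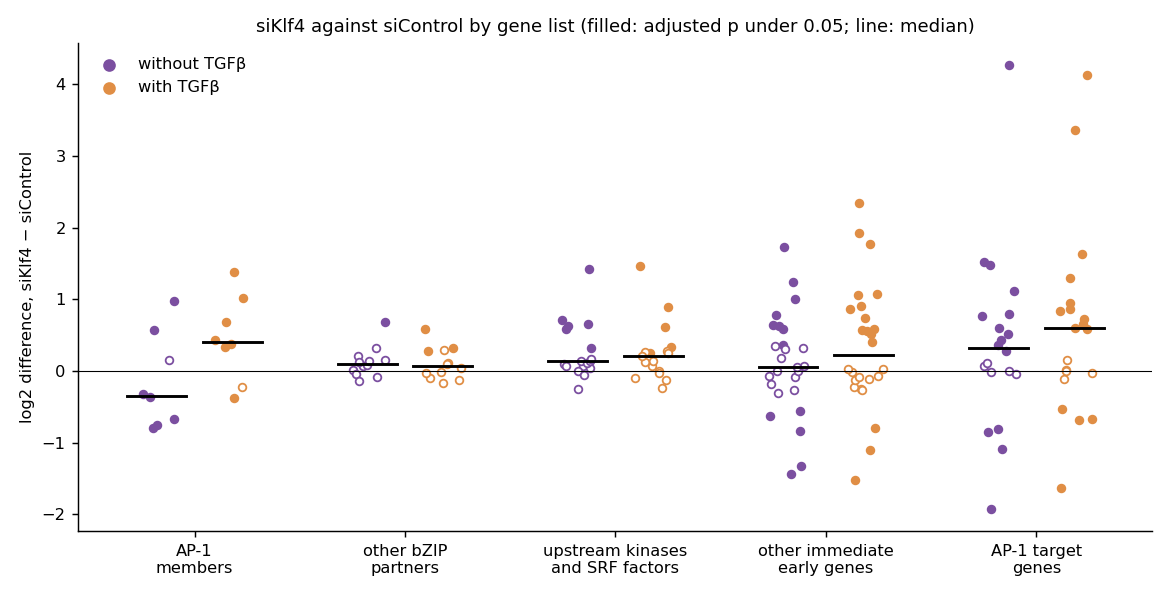
Log2 differences between siKlf4 and siControl (vertical axis) for the 8 members and 4 lists of AP-1 related genes, without TGFβ (purple) and with it (orange); each point is a gene, filled where its adjusted p is under 0.05, and bars are medians. The member median moves from -0.35 to 0.40, that of the bZIP partners from 0.10 to 0.07 and that of the AP-1 target genes from 0.32 to 0.60. In each condition 11 of the 20 targets were called higher and 4 lower, and the highest point is Il11 (4.27 and 4.13).

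Other immediate early genes were split as well. All 26 on the list were measured. Untreated siKlf4 cells had 8 of them higher and 5 lower (median 0.06), where 9.98% of all genes were called higher and 9.71% lower. With TGFβ, siKlf4 cells had 13 higher and 3 lower (median 0.22), where 12.3% and 11.9% of all genes were. The 3 called lower with TGFβ lie near that share of all genes. Those that fell in both were Egr1, a zinc-finger factor driven by SRF (-1.43 and -1.10, adjusted p = 0.000187 and 0.000689), Zfp36, whose protein degrades AU-rich messenger RNAs (-1.33 and -1.52, adjusted p = 8.83e-05 and 2.33e-05), and Ier2 (-0.84 and -0.80). Egr2 and Btg2 fell without TGFβ (-0.62 and -0.56); these and Ier2 were named after their values were seen. Ptgs2, the inducible cyclooxygenase, rose by 1.01 and 2.34 (adjusted p = 0.000544 and 2.55e-06), and Sgk1, a serum-induced kinase, by 1.25 and 1.93 (adjusted p = 5.6e-05 and 2.78e-06). TGFβ lowered 12 of the 26 in siControl and raised 2, with a median of -0.32, where 6.65% of all genes were called lower and 5.81% higher. In siKlf4 it lowered 4 and raised 2, with a median of 0.01, where 6.87% were called lower and 6.01% higher.

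Among the 26 other immediate early genes the interaction was called higher for 3, where 0.547% of all genes were. Ier5 read 8.73 and 8.59 in siControl, 8.50 and 8.31 in siKlf4, 8.18 and 8.08 in siControl plus TGFβ, and 8.84 and 8.90 in siKlf4 plus TGFβ. Its interaction was 1.00 (SE 0.136, adjusted p = 0.0128), with a siKlf4 difference of -0.26 (not called, adjusted p = 0.101) without TGFβ and 0.74 (adjusted p = 0.000394) with it. Ptgs2 read 10.34 and 10.06, 11.35 and 11.07, 9.84 and 9.61, and 12.09 and 12.03 in the same order of groups, with an interaction of 1.33 (SE 0.186, adjusted p = 0.0145). Ptgs2 was higher in siKlf4 in both conditions, which Jun was not. Ier3, a survival gene named after its values were seen, had an interaction of 0.74 (SE 0.145, adjusted p = 0.0453). Its siKlf4 difference was 0.32 without TGFβ (not called, adjusted p = 0.0587) and 1.06 with it (adjusted p = 6.04e-05). Unlike that of Jun, it did not change sign. The interaction of Ier5 was lost without any 1 TGFβ array (0.0609 to 0.0808), that of Ptgs2 without siControl with TGFβ 2 (0.0808) or either siKlf4 array with TGFβ (0.0752 and 0.0715), and that of Ier3 without any 1 array but siControl 2 (0.0738 to 0.189).

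**Figure D4:**
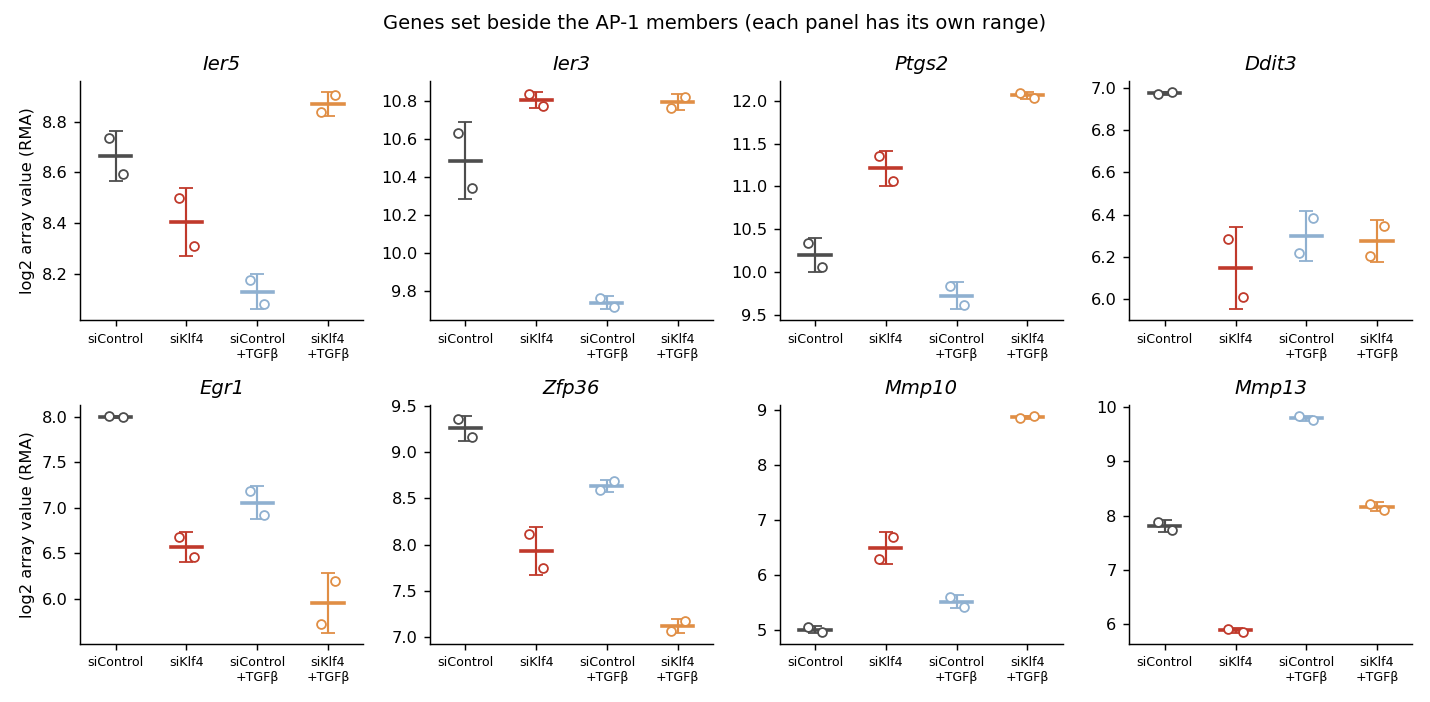
Log2 array values (vertical axis, a separate range in each panel) of 8 genes set beside the members, in the 4 groups, with each array as a point and the group mean ± SD (n = 2) as a bar. Ier5 falls and returns as Jun does, while Egr1 and Zfp36 are lowest in siKlf4 with TGFβ and Mmp10 is highest there.

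Genes known as AP-1 targets moved in both directions. Of 24 listed 20 were analysed here. In each of the 2 siKlf4 comparisons 11 were called higher and 4 lower. Of all genes, 9.98% were called higher and 9.71% lower untreated, and 12.3% and 11.9% with TGFβ. The median difference of the targets was 0.32 untreated and 0.60 with TGFβ, against 0.00417 and -0.0299 over all genes. Il11, a cytokine of the Il6 family, rose most, by 4.27 and 4.13 (adjusted p = 1.23e-06 and 8.11e-07). Its siControl arrays read only 4.45 to 5.03 and those with TGFβ 4.54 to 4.65, near the array medians, and with no measure of background these differences may understate the change. The genes that fell were Mmp13, a collagenase (-1.93 and -1.63, adjusted p = 1.65e-06 and 2.13e-06), Ereg, an EGF receptor ligand (-1.09 and -0.53, adjusted p = 0.000541 and 0.0236), and the metallothioneins Mt1 (-0.81 and -0.67) and Mt2 (-0.85 and -0.69), both named after their values were seen. The call of Ereg with TGFβ was lost without siControl with TGFβ 1 (0.174) or either siKlf4 array with TGFβ (0.103 and 0.105). Metalloproteinases moved apart, since Mmp10, a stromelysin, rose by 1.48 and 3.36 (adjusted p = 5.27e-05 and 4.88e-07). Mmp10 read 5.05 and 4.96 in siControl, 6.29 and 6.70 in siKlf4, 5.60 and 5.43 in siControl plus TGFβ, and 8.86 and 8.90 in siKlf4 plus TGFβ. Its interaction of 1.88 (SE 0.184, adjusted p = 0.00522) was the only one called among the 20. TGFβ raised Mmp13 by 1.99 in siControl and 2.29 in siKlf4, so its 2 changes ran in opposite directions.

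The genes closest to each member over the 8 arrays were found by the root mean square difference between log2 values centred on each gene's own mean, among 18611 genes, with a member's own root mean square as the scale. For Jun (own 0.283) the nearest was Ier5 at 0.0553, followed by Pcgf1 at 0.122 and Trib3 at 0.136. For Fosl2 (own 0.632) they were Zbtb38 at 0.0624, Pde4d at 0.0859 and Pkhd1 at 0.0907. For Atf3 (own 0.33) the nearest were Ddit3 at 0.156, which encodes the stress factor CHOP, and Olfr166 and Aqp9 at 0.161 each. Ddit3 read 6.97 and 6.98 in siControl, 6.28 and 6.01 in siKlf4, 6.22 and 6.38 in siControl plus TGFβ, and 6.21 and 6.35 in siKlf4 plus TGFβ. It was lower in siKlf4 without TGFβ (-0.83, adjusted p = 0.000615) as Atf3 was, but with TGFβ its arrays overlapped (-0.02, adjusted p = 0.922), where Atf3 was called higher.

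For Fos (own 0.381) the nearest were D6Wsu163e at 0.0919, Mad2l2 at 0.0968 and Zfp239 at 0.097, and for Fosb (own 0.408) Vps37b at 0.153, Snord87 at 0.168 and Rnaseh2b at 0.179. For Fosl1 (own 0.267) they were Sec11c at 0.0529, Atr at 0.0549 and Ndrg3 at 0.0626. For Junb (own 0.549) they were Lhfpl2 at 0.137, Ctxn1 at 0.143 and Cblb at 0.16, and for Jund (own 0.152) Nipbl at 0.0361, Sufu at 0.0386 and Rap2c at 0.0396. None of the 8 members was among the 3 nearest genes of another. With only 3 taken from 18611 genes, this does not show that the members are unlike each other.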

How the data were processed

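Total RNA of 8 NMuMG samples was labelled with biotin and hybridised to Affymetrix whole-transcript arrays. The deposited values are log2 expression levels per probe set, which per the labels and methods the authors obtained by robust multi-array averaging (RMA), with oligo 1.14.0 named in the submitters' processing notes. The base of the logarithm was read from the range of values, and the annotation and background settings are not given in the sources used here. RMA equalises the array distributions, so a shift common to most genes is not seen.

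Of 34760 probe sets 21640 had 1 gene symbol, 1321 several and 11799 none listed, and 21553 of the first matched RefSeq by Entrez ID. The probe set with the highest mean stood for each of 19937 genes. Groups came from the labels. One mean per group was fitted with limma 3.58.1 (R 4.3.3), with empirical Bayes moderation (4 residual and 4.93 prior degrees of freedom), Benjamini-Hochberg adjustment over all genes and a threshold of 0.05. The fit was tested on simulated data. The members and lists were chosen with earlier results of these data known. Named were all members, Klf4, Mapk8, the 3 genes closest to each member, and up to 2 highest and 2 lowest called genes of each list. Signal over background was not used here, so no probe set was judged detected. Alternatives covered scaling, filters, probe set choice, the fit and leaving out each array.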

Additional observations from a re-analysis of the deposited data

Results flagged for a closer look

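Over all genes, the limma test of the interaction called 0.547% higher and 0.978% lower. Of the members, lists and other named genes it called 8, all higher, where the siKlf4 difference with TGFβ departed from that without. Among the members these were Fosb (1.10, SE 0.155, adjusted p = 0.0145), Jun (1.06, SE 0.133, adjusted p = 0.0111) and Atf3 (1.16, SE 0.156, adjusted p = 0.0128), which were lower in untreated siKlf4 and higher in siKlf4 plus TGFβ. Among the genes set beside them these were Ptgs2 (1.33, adjusted p = 0.0145), Ier5 (1.00, adjusted p = 0.0128), Ier3 (0.74, adjusted p = 0.0453), Mmp10 (1.88, adjusted p = 0.00522) and Ddit3 (0.81, SE 0.156, adjusted p = 0.0435). The call of Ddit3 was lost without any 1 array but siKlf4 1 (0.0979 to 0.189), with the replicate block (0.0635) and with all probe sets tested (0.0545); Ddit3 had been named for its likeness to Atf3, which shares the pattern tested. The call of Ier3 was also lost with all probe sets tested (0.0559). Those of Fosb, Jun, Atf3, Ptgs2 and Ier5 were lost on leaving out single arrays with TGFβ, as given above. By an unmoderated t-test on the same fit none of the 8 was called (adjusted p = 0.123 to 0.239). Groups of 2 arrays are too small for a test of single outlying arrays.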

How the results depend on the processing

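Over 20 alternatives, 10 of the 27 called member differences stayed called in every one (Fos without TGFβ; Fosb without TGFβ and for TGFβ in siControl; Fosl2 for siKlf4 in both conditions and for TGFβ in siKlf4; Jun for siKlf4 with TGFβ and for TGFβ in siControl; Junb with TGFβ; Atf3 without TGFβ). The other 17 were lost in at least 1, 3 of the 13 uncalled ones passed in at least 1, and 0 reversed. An unmoderated t-test of each comparison took the residual spread of the same fit of 1 mean per group. The one-way analysis of variance that the methods name was not run itself. Members called without TGFβ numbered 7, and 4 by the unmoderated t-test and 4 at an adjusted p of 0.01. With TGFβ they numbered 7, then 4 and 3, and 3 to 7 without 1 array (3 without either siControl array with TGFβ, 4 without either siKlf4 array with TGFβ). For TGFβ in siControl they numbered 6, then 2 by the unmoderated t-test. For TGFβ in siKlf4 they numbered 4, then 1 and 2, and 1 to 5 without 1 array (1 without siKlf4 2 or siKlf4 with TGFβ 2). The 3 interactions fell to 0 by the unmoderated t-test and 0 at 0.01, with 6 members under an unadjusted p of 0.05 in limma. The interaction over all genes was called for 304 genes, for 0 by the unmoderated t-test, 37 at 0.01 and 760 with a trended and robust fit. TGFβ in siControl was called for 2484 genes, 1489 by the unmoderated t-test and 1207 at 0.01. TGFβ in siKlf4 was called for 2569, 1702 and 1402 genes in the same order. Scaling moved the median of all genes by at most 0.048, but with array medians centred some member calls were lost. These were Fos for siKlf4 with TGFβ (limma adjusted p = 0.0653), and Fosl1 for siKlf4 without TGFβ (0.053) and for TGFβ in siKlf4 (0.0625). Of the lists, the bZIP partners had 4 calls over both siKlf4 comparisons, 2 at 0.01 and 2 to 5 without 1 array, the upstream genes 11 (8 to 11), the immediate early genes 29 (27 to 31) and the AP-1 targets 30 (28 to 30); most alternatives of the lists, and those of the other named genes, were chosen after seeing the data. The cause of these changes was not tested. Deviations of same-numbered arrays correlated at 0.382 between siControl and siKlf4 and at -0.0503 to 0.0383 in the other 5 pairs of groups, so the numbers were not taken to pair the arrays throughout, and whether untreated siControl and siKlf4 are paired is not known. With the replicate block Junb for TGFβ in siKlf4 became called (adjusted p = 0.0468), members called numbered 7, 7, 6, 5 and 3 in the 5 comparisons, and no other member call changed. Among the other named genes the block also raised past the threshold Mapk8 for siKlf4 with TGFβ (0.0437), Elk3 (0.0492) and Elk1 (0.0447) for TGFβ in siControl and Sgk1 for TGFβ in siKlf4 (0.037), and ended the interaction of Ddit3 (0.0635).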
